A study of Mus musculus with 12 samples.

Results

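The effect of the Idh2 deletion was examined within the male mice alone, by setting the 2 IDH2 KO male livers against the 3 WT male livers. The members were chosen by genotype and sex from the sample labels, not by any measured value, and they make up 5 of the 12 liver libraries of the series, the other 7 being female. IDH2 KO males were germ-line Idh2-/- knockout mice and WT males were their wild-type littermates, all C57BL/6N. All were bled out under anesthesia by cardiac puncture at 8 to 10 weeks of age, and the study describes no other treatment of either genotype. Every cell of a germ-line knockout carries the deletion throughout development. Each library came from liver tissue of 1 mouse and was read as single ends of 50 bases. The tables count reads per gene, and levels are given as CPM, which are counts made relative to the size of each library after scaling by the trimmed mean of M values (TMM). Fold changes are IDH2 KO over WT on the log2 scale, with the standard error (SE) of the fit. Because the IDH2 KO side had only 2 libraries, both values are given and no SD is given for it.

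Idh2 encodes the mitochondrial isocitrate dehydrogenase that uses NADP+, and it turns isocitrate into alpha-ketoglutarate while making NADPH in the matrix. NADPH feeds glutathione and thioredoxin reduction, and citrate leaving the mitochondrion supplies the carbon for fatty acid and sterol synthesis in the hepatocyte. Immediate early genes, the group that held most of the genes called higher here, encode transcription factors and RNA-binding proteins whose transcription is switched on by growth factors, cytokines and stress without the need for new protein synthesis.

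Of the 6 immediate early genes that were called higher, the gene starts of 4 are shown, while those of Egr1 and Ier2 were not used here. They are shown because the cyclic AMP response element (CRE) and the CArG box, bound by serum response factor, are textbook elements of such promoters. Each sequence runs from 250 bases before to 50 bases after the RefSeq gene start (GRCm38.p6), on the strand of the gene, 5′ to 3′, and capitals mark a CRE (TGACGTCA) or a CArG box found on either strand. The Zfp36 window lies at chr7:28379179-28379478, the Btg2 window at chr1:134079106-134079405, the Jun window at chr4:95052173-95052472 and the Junb window at chr8:84978699-84978998, all on the minus strand.
Zfp36: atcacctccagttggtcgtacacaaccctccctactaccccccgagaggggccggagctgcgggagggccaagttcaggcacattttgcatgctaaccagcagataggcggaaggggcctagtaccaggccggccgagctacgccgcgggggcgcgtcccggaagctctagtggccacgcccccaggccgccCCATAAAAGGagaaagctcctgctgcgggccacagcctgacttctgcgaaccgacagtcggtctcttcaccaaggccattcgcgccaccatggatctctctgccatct
Btg2: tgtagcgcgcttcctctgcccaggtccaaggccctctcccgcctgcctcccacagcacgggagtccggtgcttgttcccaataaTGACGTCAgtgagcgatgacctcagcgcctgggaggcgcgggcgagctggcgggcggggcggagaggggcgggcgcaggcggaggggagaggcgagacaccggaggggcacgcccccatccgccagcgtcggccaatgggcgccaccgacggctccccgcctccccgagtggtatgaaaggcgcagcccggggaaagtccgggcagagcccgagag
Jun: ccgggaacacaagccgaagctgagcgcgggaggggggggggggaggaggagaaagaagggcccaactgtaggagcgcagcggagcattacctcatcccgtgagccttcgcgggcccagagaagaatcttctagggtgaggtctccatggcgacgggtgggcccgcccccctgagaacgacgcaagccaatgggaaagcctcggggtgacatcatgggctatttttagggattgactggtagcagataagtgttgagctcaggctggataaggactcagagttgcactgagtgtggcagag
Junb: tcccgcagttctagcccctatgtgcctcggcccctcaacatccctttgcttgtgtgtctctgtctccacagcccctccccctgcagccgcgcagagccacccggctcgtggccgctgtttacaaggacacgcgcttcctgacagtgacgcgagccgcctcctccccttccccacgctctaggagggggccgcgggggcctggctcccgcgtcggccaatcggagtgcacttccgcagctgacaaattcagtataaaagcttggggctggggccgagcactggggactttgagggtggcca
The Zfp36 window held 1 CArG box, starting at position -58 from the gene start, and the Btg2 window held 1 CRE, starting at position -166. Over all 32851 promoter windows of this length, 1.79% held a CRE and 1.63% held a CArG box. The windows of Jun and Junb held neither run of letters.

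The libraries held 18444006 and 15323300 reads in IDH2 KO males, and 17055853, 17876280 and 18556690 reads in WT males. The labelled tissue was borne out by its markers: albumin (Alb) stood at 70235 and 58672 CPM in IDH2 KO males, against 120425, 95804 and 125178 CPM in WT males. Transcripts of the mitochondrial genome took 41.3% and 39.7% of the reads in IDH2 KO males and 40.7%, 25.7% and 49.3% in WT males, so WT male 2 and WT male 3 stood at the low and the high end. WT male 1 stood apart in another way. Akp3, an alkaline phosphatase of the intestine picked out after its values were seen, had 1 and 2 reads in IDH2 KO males, against 38768, 19 and 1 reads in WT males, and the summed level of the pancreas and gut markers was 86.4 and 91.6 CPM in IDH2 KO males against 362, 91.1 and 76.0 CPM in WT males. The summed level of the cholangiocyte markers was 9.93 and 7.13 CPM in IDH2 KO males, against 73.5, 4.91 and 4.85 CPM in WT males. A count of 0 in these tables cannot be read as a silent gene, because transcripts abundant in every liver, such as Cps1, Hspa5 and Acsl1, were listed at 0 in all 5 libraries and Gapdh had 0 and 14 reads in IDH2 KO males, against 0, 30 and 1 in WT males. Idh1, the cytosolic counterpart of Idh2, was also listed at 0 in all 5.

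Idh2 itself was all but missing from the IDH2 KO males. It had 7 and 1 reads, or 0.349 and 0.0575 CPM, in IDH2 KO males, against 1091, 967 and 1129 reads, or 72.1, 42.7 and 84.2 CPM, in WT males. The genotype labels of all 5 libraries were therefore borne out by the deleted gene (chr7:80094846-80115392, minus strand, GRCm38). The fitted log2 fold change was -8.25 ± 0.62 (SE, adjusted p = 0.000608), and the WT over IDH2 KO ratio of summed reads was 291, with an exact 95% interval of 148 to 676 that covers counting error only. This call held in all 15 alternative analyses, those without any 1 library included.

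Of 7680 genes with enough reads to test, 9 were higher in IDH2 KO males (0.117%) and 11 were lower (0.143%) at an adjusted p under 0.05 in edgeR's quasi-likelihood test, Idh2 among the lower ones. The looser criteria below take their thresholds, a fold change over 2 and an unadjusted p under 0.05, from the study, but the p values are those of edgeR and not of the study's own test. By these criteria 159 genes were higher (2.07%) and 178 were lower (2.32%). Both IDH2 KO libraries lay above all 3 WT libraries for 985 genes (12.8%) and below all 3 for 903 genes (11.8%). The median log2 fold change over all genes tested was -0.01, with 3737 positive and 3943 negative values. With no scaling factors, where the median of all genes shifted to 0.20, the calls were 19 higher and 6 lower. The counts of calls leaned on single libraries: without WT male 3 they were 3 higher and 3 lower, without WT male 2 they were 18 and 15, without WT male 1 they were 10 and 9, without IDH2 KO male 1 they were 8 and 5, and without IDH2 KO male 2 they were 7 and 8. The 6 calls that stood without WT male 3 were Gdpd3, Egr1 and Zfp36 among the higher genes and Idh2, LOC108169093 and Cnbd2 among the lower ones.

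**Figure D1:**
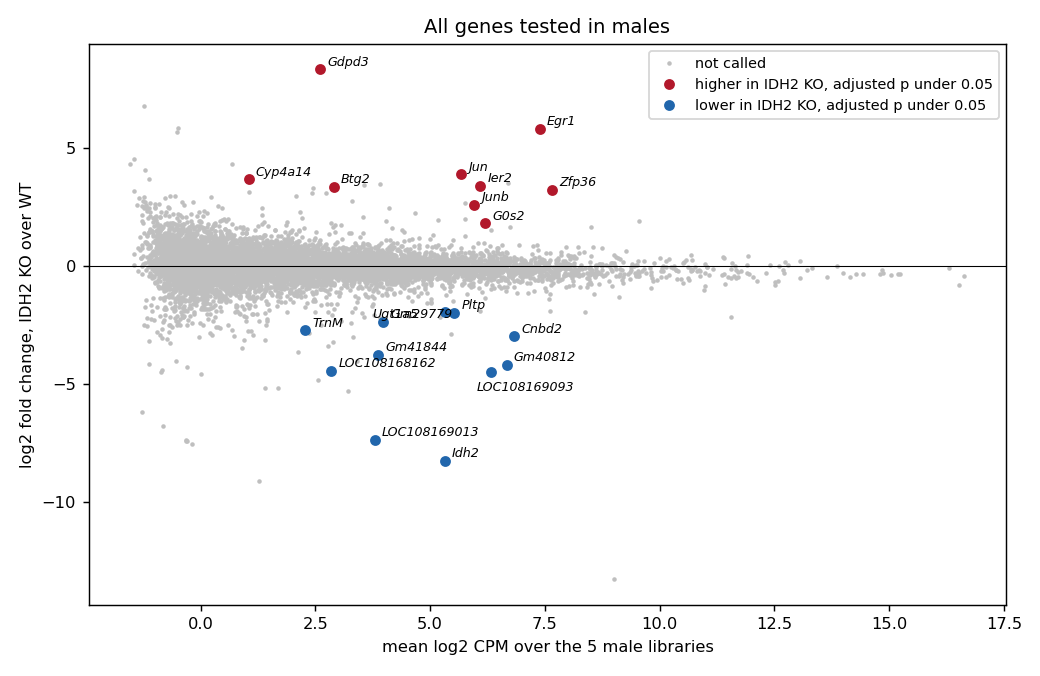
Log2 fold change of IDH2 KO over WT males (vertical axis) against the mean log2 CPM of the 5 libraries (horizontal axis) for the 7680 genes tested, one point per gene. The 9 genes called higher and the 11 called lower are coloured and named, and the grey point far below them is Akp3, which WT male 1 alone holds at a high level.

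Immediate early genes made up 6 of the 9 genes called higher. Of the 43 genes of this list 25 could be tested, 6 were called higher and 0 lower, and 12 of the 25 (48.0%) passed the study's criteria as higher, against 2.07% of all genes tested. The median log2 fold change of the 25 was 0.88, against -0.01 over all genes, and their values ran between -1.86 and 5.79, so that 5 of the 25 lay below 0. Summed over the list, the level was 971 and 2090 CPM in IDH2 KO males, against 210, 177 and 179 CPM in WT males. The median leaned on single libraries, being 1.66 without IDH2 KO male 1 and 1.75 without WT male 3. The sum was higher in IDH2 KO male 2 than in IDH2 KO male 1, and the 2 groups did not overlap.

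Egr1, a zinc finger transcription factor induced within minutes by growth factors, showed the highest fold of the list. It stood at 213 and 603 CPM in IDH2 KO males, against 4.63, 7.07 and 10.4 CPM in WT males, a log2 fold change of 5.79 ± 0.52 (SE, adjusted p = 0.00335). Zfp36 encodes tristetraprolin, which binds AU-rich elements of cytokine mRNAs and speeds their decay. Its level was 308 and 553 CPM in IDH2 KO males, against 57.0, 42.3 and 40.3 CPM in WT males. The log2 fold change of Zfp36 was 3.21 ± 0.30 (SE, adjusted p = 0.00132), and it was the only gene of the list whose call held in all 15 alternatives.

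The AP-1 subunit Jun had 53.4 and 177 CPM in IDH2 KO males, against 10.4, 7.60 and 5.45 CPM in WT males (log2 fold change 3.88 ± 0.50 SE, adjusted p = 0.0246). Junb, another subunit of AP-1, had 62.2 and 186 CPM in IDH2 KO males, against 20.4, 22.5 and 19.5 CPM in WT males (log2 fold change 2.58 ± 0.40 SE, adjusted p = 0.0383). For both subunits IDH2 KO male 2 was the higher of the IDH2 KO libraries. Ier2, an immediate early gene of the nucleus, had 91.7 and 206 CPM in IDH2 KO males, against 16.2, 8.49 and 18.1 CPM in WT males (log2 fold change 3.39 ± 0.42 SE, adjusted p = 0.0163). Btg2, an antiproliferative cofactor of mRNA deadenylation, had 8.09 and 23.8 CPM in IDH2 KO males, against 1.78, 1.72 and 1.19 CPM in WT males (log2 fold change 3.33 ± 0.48 SE, adjusted p = 0.0211). In all 6 genes IDH2 KO male 2 was the highest library of the 5, and no WT library reached either IDH2 KO library.

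Some of these calls rested on 1 library. Without WT male 3, 2 of the 6 calls stood (Zfp36 and Egr1), with adjusted p = 0.0749 for Ier2, 0.116 for Jun, 0.175 for Btg2 and 0.274 for Junb. Without WT male 2, Egr1 (adjusted p = 0.116), Jun (0.252) and Junb (0.183) were not called, and without WT male 1 Btg2 (0.0778) and Junb (0.136) were not called. Without IDH2 KO male 2 the log2 fold changes of Btg2 and Junb were 2.37 and 1.60 and neither was called (adjusted p = 0.380 for Btg2 and 0.258 for Junb). The fold changes of all 6 stayed positive in every one of these fits.

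**Figure D2:**
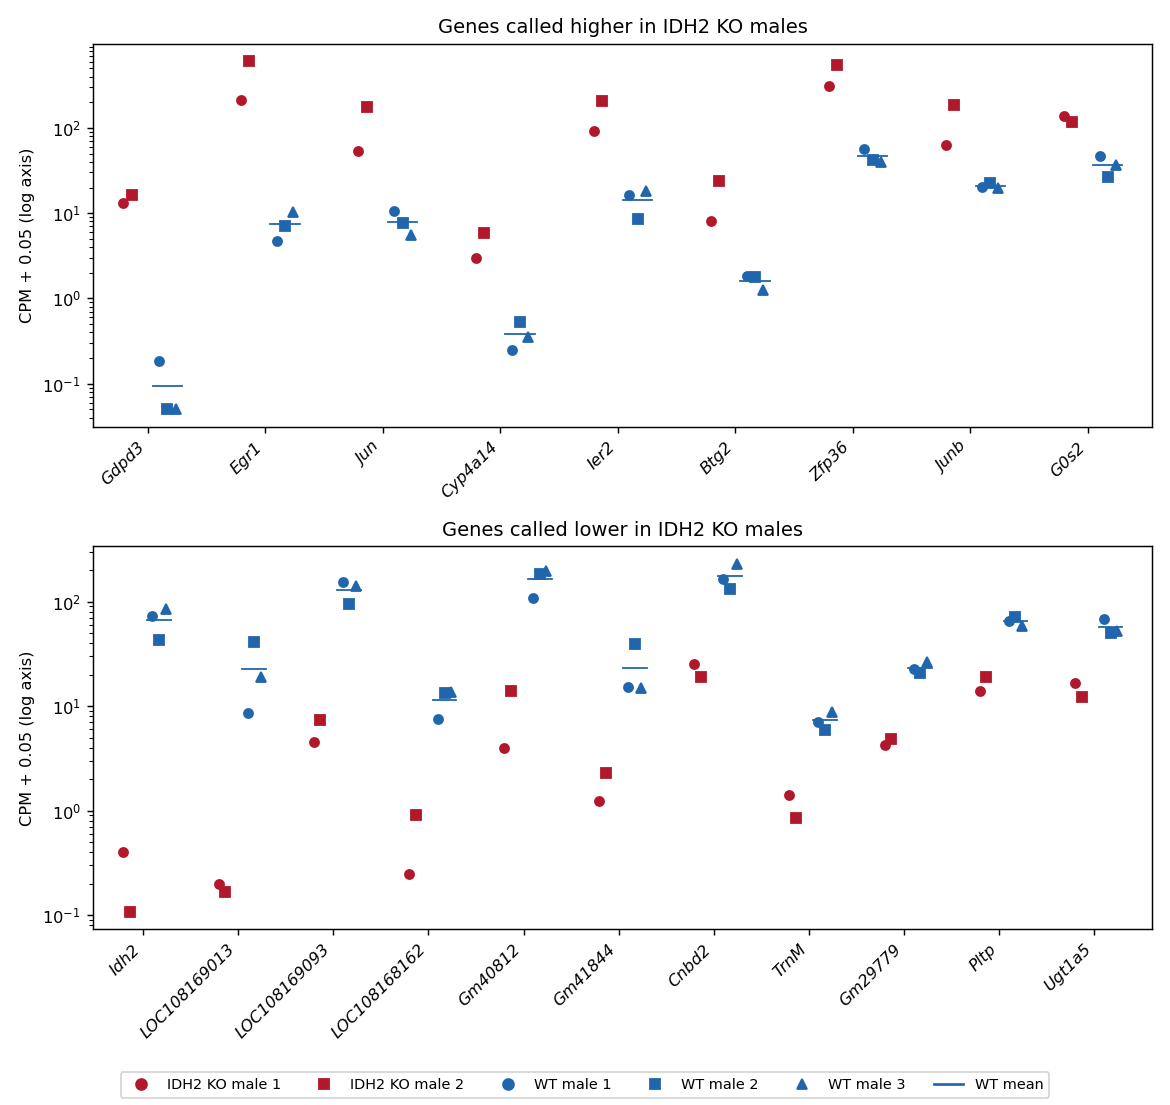
Level of each gene called at an adjusted p under 0.05 in every male library, as CPM plus 0.05 on a log axis, with the IDH2 KO libraries left of the WT libraries and a bar at the WT mean. In the upper panel the 9 higher genes, and in the lower panel the 11 lower genes, show no overlap between the 2 IDH2 KO and the 3 WT libraries.

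Hemoglobin transcripts were also more abundant in both IDH2 KO libraries. Of 12 erythroid markers 7 could be tested. By the study's criteria 4 of these (Hba-a1, Hba-a2, Hbb-bs and Hbb-bt), or 57.1%, were higher, against 2.07% of all genes. None of the 7 was called at the adjusted threshold in edgeR, with 4 at an unadjusted p under 0.05, while DESeq2 and limma each called 3 (Hba-a1, Hba-a2 and Hbb-bt). The other 3 tested, among them Alas2, the erythroid enzyme of heme synthesis, had negative fold changes, and Epb42 and Ermap stood at 0 reads throughout. Summed over the list, the level was 350 and 249 CPM in IDH2 KO males, against 72.9, 26.5 and 39.7 CPM in WT males. Hbb-bs, a beta globin, had 280 and 175 CPM in IDH2 KO males, against 41.4, 3.36 and 15.9 CPM in WT males. Its log2 fold change was 3.50 ± 1.01 (SE, adjusted p = 0.656), and reads of the nearly identical globin copies may have been split between them. Without WT male 1, the highest WT library for these genes, 3 of the 7 were called higher, and without either IDH2 KO library 2 passed the study's criteria. In bulk tissue a change in the number of cells of a type and a change in RNA per cell cannot be told apart. The part of blood in the immediate early values was not tested.

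Heat and cold shock genes lay above WT as a list, with 0 members called in edgeR and 5 at an unadjusted p under 0.05, all higher. DESeq2 called 1, Hspa1b, as did limma on log2 RPM plus 0.5, and limma plus 1 called 0. Of 31 genes 19 were tested, 4 (21.1%) passed the study's criteria as higher and 0 as lower, against 2.07% and 2.32% of all genes, and the median log2 fold change was 0.55. Hspa1b, an inducible HSP70, had 7.54 and 32.4 CPM in IDH2 KO males, against 3.44, 2.56 and 2.98 CPM in WT males (log2 fold change 2.74 ± 0.54 SE, adjusted p = 0.130). Its cochaperone Dnajb1 had 10.5 and 20.0 CPM in IDH2 KO males, against 6.61, 4.29 and 6.57 CPM in WT males. The small heat shock protein gene Hspb1 had 22.3 and 58.6 CPM in IDH2 KO males, against 20.3, 14.8 and 17.9 CPM in WT males, and Dnajb9, a cochaperone of the endoplasmic reticulum, had 46.9 and 118 CPM, against 31.4, 37.9 and 34.4 CPM in WT males. All 4 genes were again highest in IDH2 KO male 2, and without that library 1 of the tested members passed the criteria and the median was 0.25. Without IDH2 KO male 1, in contrast, 9 passed and the median was 1.04, with Hspa1b called higher (adjusted p = 0.00745).

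The other 3 genes called higher were Gdpd3, G0s2 and Cyp4a14. Gdpd3 encodes a glycerophosphodiester phosphodiesterase with lysophospholipase D activity and lies at chr7:126766334-126775649, 46.7 Mb from Idh2 on the same chromosome. It had 261 and 287 reads, or 13.0 and 16.5 CPM, in IDH2 KO males, against 2, 0 and 0 reads in WT males. The ratio of summed reads was 375, with an exact 95% counting interval of 103 to 3100, and the adjusted p was 0.000608. WT libraries were thus at the floor of the counting for this gene, and the call was lost only when the 12 libraries were fitted together (adjusted p = 0.159).

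Both G0s2 and Cyp4a14 belong to the list of targets of PPARA, the nuclear receptor that senses fatty acids in liver. G0s2, an inhibitor of the triglyceride lipase ATGL, had 138 and 118 CPM in IDH2 KO males, against 47.0, 26.5 and 36.7 CPM in WT males (log2 fold change 1.80 ± 0.28 SE, adjusted p = 0.0299). Cyp4a14, a fatty acid omega-hydroxylase, had 2.94 and 5.75 CPM in IDH2 KO males, against 0.198, 0.486 and 0.299 CPM in WT males (log2 fold change 3.66 ± 0.60 SE, adjusted p = 0.0383). Cyp4a14 has close paralogs, so reads could have been shared among copies. The call of Cyp4a14 was lost without WT male 1, WT male 3, IDH2 KO male 1 or IDH2 KO male 2, and that of G0s2 without WT male 3 or either IDH2 KO library, with all fold changes still positive.

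Over the 18 PPARA targets tested of 30, 2 were called higher and 0 lower. By the study's criteria 4 (22.2%) were higher, against 2.07% of all genes. The median log2 fold change of the 18 was 0.19. The sign of that median was set by single libraries, since it was -0.51 without IDH2 KO male 2, -0.06 without WT male 1 and 0.71 without IDH2 KO male 1. Cyp4a10, another omega-hydroxylase, had 278 and 941 CPM in IDH2 KO males, against 90.9, 283 and 217 CPM in WT males, and Pdk4, a kinase that shuts down pyruvate dehydrogenase, had 6.59 and 17.5 CPM, against 8.13, 2.87 and 2.39 CPM in WT males. Both overlapped between groups (adjusted p = 0.743 for Cyp4a10 and 0.741 for Pdk4). Ppara itself had 4.04 and 6.44 CPM in IDH2 KO males, against 4.29, 6.85 and 5.07 CPM in WT males. It did not differ beyond the spread (adjusted p = 0.996), and the sign of its fold change turned positive with no scaling factors. Of 26 fatty acid oxidation genes tested, 0 were called in edgeR, DESeq2 or limma, 0 had an unadjusted p under 0.05 in edgeR, and the median was -0.02.

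Fatty acid synthesis genes lay below WT as a list, with 0 members called in edgeR and 6 at an unadjusted p under 0.05, all lower. DESeq2 called 2 lower (Scd1 and Me1) and limma called Scd1 under either pseudocount. Of 29 genes 19 were tested, all 19 had a negative log2 fold change, 6 (31.6%) passed the study's criteria as lower against 2.32% of all genes, and 11 (57.9%) had both IDH2 KO libraries below all WT libraries, against 11.8% of all genes. The median log2 fold change of the 19 was -0.86. The summed level was 2856 and 1808 CPM in IDH2 KO males, against 7555, 4665 and 6465 CPM in WT males. Scd1 made up most of the sum in WT males but not in IDH2 KO males, so the gap between the sums leaned on this gene. IDH2 KO male 2 was the lowest library. Without it 2 members passed the criteria and the median was -0.49, and without WT male 1 it was 3 members. Without IDH2 KO male 1 the median was -1.65 and 7 members passed.

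Scd1, the stearoyl-CoA desaturase that makes oleate, had 1374 and 580 CPM in IDH2 KO males, against 5602, 2965 and 4486 CPM in WT males (log2 fold change -2.15 ± 0.43 SE, adjusted p = 0.130). Fasn, the fatty acid synthase, had 139 and 85.3 CPM in IDH2 KO males, against 271, 225 and 205 CPM in WT males (log2 fold change -1.06 ± 0.28 SE, adjusted p = 0.367). Neither gene passed the adjusted threshold in edgeR, while the groups did not overlap for either, and the call of Scd1 was made in 6 of the 15 alternatives and that of Fasn in 1. Acss2, which activates acetate to acetyl-CoA, had 3.44 and 1.67 CPM in IDH2 KO males, against 8.59, 6.19 and 7.01 CPM in WT males (adjusted p = 0.435). Me1, the cytosolic malic enzyme and a source of NADPH, had 1 and 1 reads in IDH2 KO males, against 12, 62 and 10 reads in WT males (adjusted p = 0.242). The WT over IDH2 KO ratio of Me1 reads was 30.7, with an exact 95% counting interval of 8.25 to 258, and WT male 2 held most of the WT reads.

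Thrsp, Elovl6, Dgat2, Srebf2 and Aacs, which the study singled out around lipogenesis, all had negative log2 fold changes in the males, in edgeR and in every alternative that tested them, and none was called in edgeR or DESeq2. Thrsp, a lipogenic gene that answers to thyroid hormone, had 107 and 27.3 CPM in IDH2 KO males, against 111, 181 and 80.3 CPM in WT males, so that IDH2 KO male 1 lay inside the WT range. Elovl6, a fatty acid elongase, also overlapped, with 9.48 and 3.56 CPM in IDH2 KO males, against 12.6, 13.7 and 9.18 CPM in WT males. Dgat2, the last enzyme of triglyceride synthesis, had 360 and 359 CPM in IDH2 KO males, against 456, 444 and 431 CPM in WT males. The log2 fold changes were -0.89 ± 0.60 for Thrsp (SE, adjusted p = 0.860), -0.86 ± 0.43 for Elovl6 (adjusted p = 0.806) and -0.30 ± 0.22 for Dgat2 (adjusted p = 0.862), with no overlap between groups for Dgat2. Acaca, Rxra and Sirt1 had too few reads to test, with 2, 12 and 9 reads summed over IDH2 KO males, against 16, 34 and 10 over WT males. Srebf1, Scap, Ppargc1a, Cd36 and Slc27a1 were listed at 0 in all 5 libraries, and no direction was drawn for them. Srebf2, the sterol-sensing regulator, had 5 and 3 reads in IDH2 KO males, against 12, 37 and 5 in WT males (log2 fold change -2.13 ± 1.00 SE, adjusted p = 0.787). Aacs, which activates acetoacetate for lipid synthesis, had 21.9 and 8.45 CPM in IDH2 KO males, against 50.2, 56.2 and 23.9 CPM in WT males (log2 fold change -1.52 ± 0.49 SE, adjusted p = 0.606). Neither Srebf2 nor Aacs overlapped between the groups in CPM, and Aacs was called with no filter on low counts and with the replicate block (adjusted p = 0.00148 and 0.00730).

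**Figure D3:**
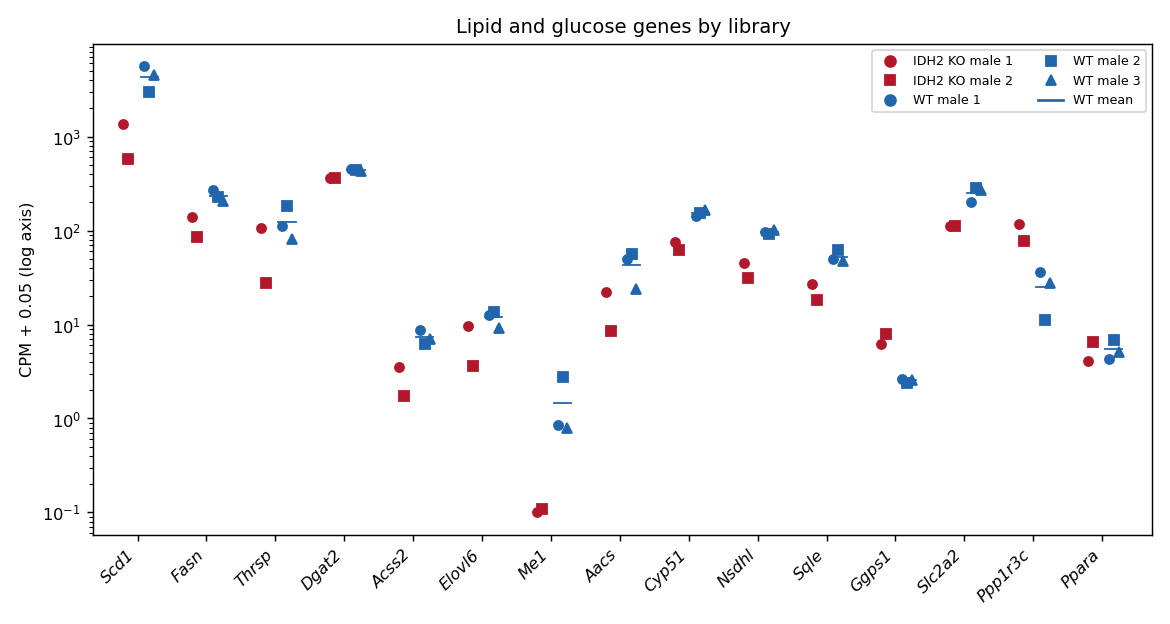
Level of 15 genes of fatty acid synthesis, sterol synthesis and glucose handling, with Ppara, in every male library, as CPM plus 0.05 on a log axis, with the IDH2 KO libraries left of the WT libraries and a bar at the WT mean. Scd1 and Fasn do not overlap between genotypes, Thrsp, Elovl6 and Ppara do, and Ggps1 and Ppp1r3c lie higher in the IDH2 KO libraries.

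Cholesterol synthesis genes lay below WT as well, with 0 members called in edgeR and 9 lower and 1 higher at an unadjusted p under 0.05. DESeq2 called 3 lower (Nsdhl, Cyp51 and Sqle) and 1 higher (Ggps1), and limma called 0. Of 31 genes 20 were tested, with a median log2 fold change of -0.59. By the study's criteria 6 (30.0%) were lower and 1 was higher, against 2.32% and 2.07% of all genes. Both IDH2 KO libraries lay below all WT libraries for 13 (65.0%), against 11.8% of all genes. Nsdhl, a sterol dehydrogenase, had 45.1 and 31.1 CPM in IDH2 KO males, against 95.9, 92.9 and 102 CPM in WT males (log2 fold change -1.35 ± 0.26 SE, adjusted p = 0.113). Cyp51, the lanosterol demethylase, had 76.2 and 61.5 CPM in IDH2 KO males, against 142, 152 and 164 CPM in WT males (log2 fold change -1.15 ± 0.24 SE, adjusted p = 0.135). In both genes each IDH2 KO value was below every WT value. Sqle, the squalene epoxidase, had 27.2 and 18.0 CPM in IDH2 KO males, against 49.8, 61.3 and 47.4 CPM in WT males (adjusted p = 0.213). The member on the other side was Ggps1, which makes geranylgeranyl pyrophosphate from the same precursors, with 6.19 and 7.82 CPM in IDH2 KO males, against 2.58, 2.34 and 2.54 CPM in WT males (log2 fold change 1.49 ± 0.36 SE, adjusted p = 0.244). Without IDH2 KO male 2 the number passing as lower was 1, and without IDH2 KO male 1 it was 9.

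Among glucose and glycogen genes 19 of 29 were tested, and 0 were called in edgeR with 6 at an unadjusted p under 0.05. Both IDH2 KO libraries lay below all WT libraries for 9 of the 19 (47.4%), against 11.8% of all genes. The median log2 fold change of the 19 was -0.48, or -0.29 with no scaling factors. Slc2a2, the glucose transporter of hepatocytes, had 113 and 111 CPM in IDH2 KO males, against 202, 286 and 273 CPM in WT males (log2 fold change -1.18 ± 0.25 SE, adjusted p = 0.159). Ppp1r3c, which brings protein phosphatase 1 to glycogen, lay on the other side with 117 and 76.9 CPM in IDH2 KO males, against 35.7, 11.1 and 27.5 CPM in WT males (log2 fold change 1.97 ± 0.44 SE, adjusted p = 0.213). Both genes kept the genotypes apart without passing the threshold in edgeR. DESeq2 called Ppp1r3c higher and Slc2a2 and Tkfc lower, limma called Ppp1r3c, and Ppp1r3c was called in 7 of the 15 alternatives. Gys2, the liver glycogen synthase, had 2.25 and 2.30 CPM in IDH2 KO males, against 4.03, 11.6 and 4.25 CPM in WT males, and Tkfc, a fructose pathway kinase, had 2.10 and 1.09 CPM, against 4.82, 16.8 and 5.30 CPM in WT males. In both of these WT male 2 was the highest library.

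The list of the tricarboxylic acid cycle, where the product of Idh2 works, also held genes outside it, such as Mpc1, Pdk4 and the cytosolic Aco1. Of its 29 genes 22 were tested, and 0 were called in edgeR, DESeq2 or limma. In edgeR 5 had an unadjusted p under 0.05, and the median log2 fold change was -0.39. By the study's criteria 2 (Mpc1 and Sucla2, 9.09%) were lower and 1 (Pdk4, 4.55%) was higher, against 2.32% and 2.07% of all genes. Both IDH2 KO libraries were below all WT libraries for 11 of the 22 (50%), against 11.8% of all genes. Without IDH2 KO male 2 the median of the list was -0.35, and without WT male 2 it was -0.26. With no scaling factors it was -0.15, and in limma it was -0.12 under either pseudocount. In these fits 0 members passed as lower with no scaling factors or in limma, where the medians of all genes were 0.20, 0.18 and 0.22. The cytosolic aconitase Aco1 had 150 and 152 CPM in IDH2 KO males, against 238, 235 and 211 CPM in WT males (log2 fold change -0.60 ± 0.23 SE, adjusted p = 0.694). Mpc1, a subunit of the mitochondrial pyruvate carrier, had 3.54 and 3.33 CPM in IDH2 KO males, against 5.42, 14.9 and 5.52 CPM in WT males, and Sucla2, a subunit of succinyl-CoA synthetase, had 0.399 and 0.575 CPM, against 2.38, 1.41 and 0.895 CPM in WT males. Apart from Idh2, 0 of the other 13 genes tested for isocitrate dehydrogenases and NADPH production was called in edgeR or limma, while Me1 had an unadjusted p under 0.05 in edgeR and was called lower in DESeq2.

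Genes of xenobiotic and steroid metabolism lay below WT in many members, with 0 called in edgeR or limma, 18 lower at an unadjusted p under 0.05 in edgeR and 5 called lower in DESeq2. The replicate block called 6 lower and the fit with no filter 9. Of 75 genes 61 were tested, with a median log2 fold change of -0.50, or -0.31 with no scaling factors. By the study's criteria 10 (16.4%) were lower and 0 higher, against 2.32% and 2.07% of all genes. Both IDH2 KO libraries lay below all WT libraries for 30 (49.2%), against 11.8% of all genes. The carboxylesterase Ces2a had 22.7 and 20.6 CPM in IDH2 KO males, against 51.1, 83.1 and 48.7 CPM in WT males (log2 fold change -1.49 ± 0.31 SE, adjusted p = 0.135). Cyp2c70, which makes muricholic acids in mouse liver, had 62.2 and 59.6 CPM in IDH2 KO males, against 114, 148 and 121 CPM in WT males (log2 fold change -1.07 ± 0.24 SE, adjusted p = 0.188). Neither gene overlapped between genotypes. Hepatocyte markers lay below WT too, with 5 of 10 tested members below in both IDH2 KO libraries (50%), against 11.8% of all genes. Of these 10 markers 0 were called in edgeR, DESeq2 or limma, 2 had an unadjusted p under 0.05 in edgeR, and the median was -0.33. With no scaling factors this median was -0.07, and in limma it was -0.05 under either pseudocount. The medians of all genes were then 0.20, and 0.18 and 0.22 in limma. The log2 fold change of Alb was -0.82 ± 0.30 (SE, adjusted p = 0.656).

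Genes known to be higher in male than in female mouse liver had a median log2 fold change of -0.48 over the 28 of 46 that could be tested. By the study's criteria, against 2.32% lower and 2.07% higher over all genes, 3 of the 28 (10.7%) were lower and 0 higher. None was called in edgeR or limma, 5 had an unadjusted p under 0.05 in edgeR, and DESeq2 called Cyp4a12a and Keg1 lower. Without IDH2 KO male 1 the median was -0.14 and 1 was lower, and without IDH2 KO male 2 it was -1.01 and 9 were lower. Cyp4a12a, a hydroxylase induced by androgen, had 82.3 and 112 CPM in IDH2 KO males, against 205, 312 and 249 CPM in WT males (log2 fold change -1.39 ± 0.28 SE, adjusted p = 0.130). Keg1, a glycine acyltransferase-like gene, had 109 and 126 CPM in IDH2 KO males, against 221, 234 and 218 CPM in WT males (log2 fold change -0.93 ± 0.23 SE, adjusted p = 0.278). Each was lower in both IDH2 KO libraries, and reads of Cyp4a12a may be shared with its near copy Cyp4a12b. A median near that of this list was also seen elsewhere, as in xenobiotic and steroid metabolism (-0.50). Genes known to be higher in female liver had a median of -0.04 over the 17 of 48 tested. By the study's criteria 2 of the 17 (11.8%) were higher and 1 (5.88%) was lower. Of them edgeR called Cyp4a14, also a PPARA target, as higher.

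**Figure D4:**
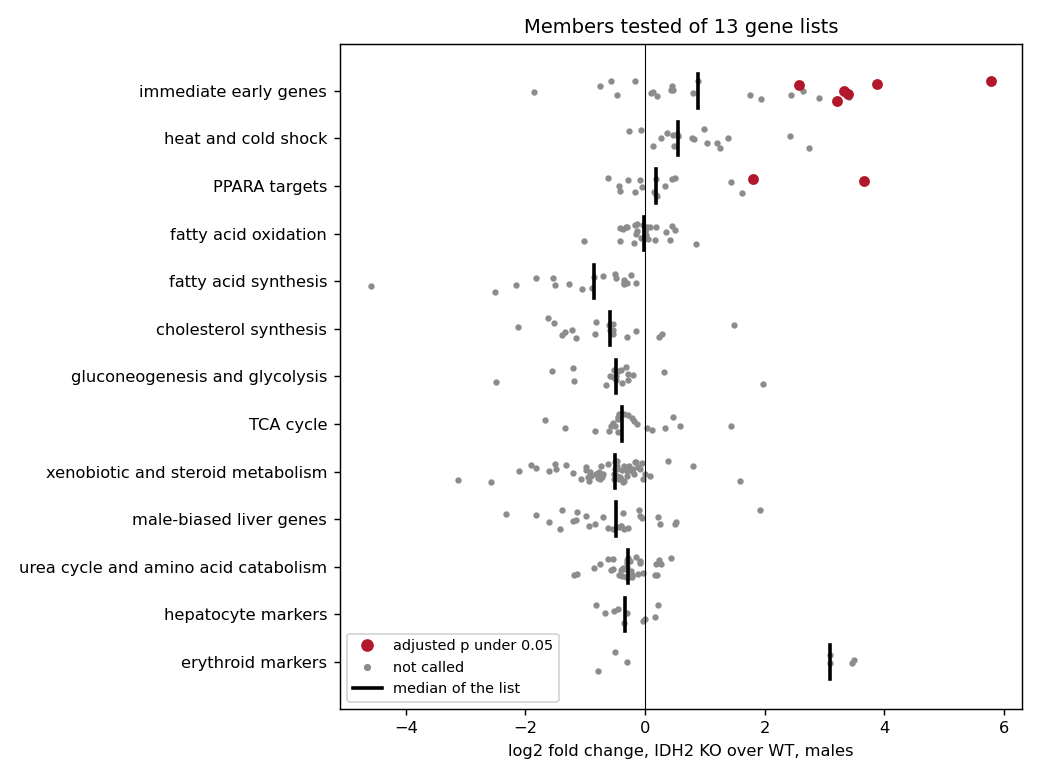
Log2 fold change of IDH2 KO over WT males (horizontal axis) for the tested members of 13 gene lists, one point per gene, with red points for an adjusted p under 0.05 and a black bar at the median of each list. In edgeR, called genes appear only among the immediate early genes and PPARA targets, the fatty acid synthesis members all lie below 0, and Cyp4a14 and G0s2 are the 2 called PPARA targets.

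The 11 genes called lower were Idh2, 3 genes of known products, the mitochondrial tRNA gene TrnM and 6 predicted loci. Pltp, the phospholipid transfer protein of plasma lipoproteins, had 13.9 and 19.1 CPM in IDH2 KO males, against 65.0, 71.9 and 58.9 CPM in WT males (log2 fold change -1.98 ± 0.28 SE, adjusted p = 0.0181). Cnbd2, a gene with a cyclic nucleotide binding domain, had 25.4 and 19.0 CPM in IDH2 KO males, against 165, 133 and 230 CPM in WT males (log2 fold change -2.98 ± 0.32 SE, adjusted p = 0.00335). Both fell well outside the spread of the WT libraries. Ugt1a5, a UDP-glucuronosyltransferase whose exons are shared with the rest of its gene cluster, had 336 and 212 reads in IDH2 KO males, against 1030, 1132 and 700 reads in WT males (log2 fold change -1.97 ± 0.29 SE, adjusted p = 0.0246). TrnM, the tRNA for methionine of the mitochondrial genome, had 27 and 14 reads in IDH2 KO males, against 107, 134 and 117 reads in WT males (log2 fold change -2.73 ± 0.44 SE, adjusted p = 0.0383). The call of Cnbd2 stood without any 1 library but was lost when the 12 libraries were fitted together (adjusted p = 0.211). Those of Pltp, Ugt1a5 and TrnM were lost without WT male 1, WT male 3 or either IDH2 KO library, and with no scaling factors, and those of Pltp and Ugt1a5 also in limma.

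Predicted loci, which carry a Gm or LOC number and no described product, were 6 of the 11 lower genes (54.5%) and 0 of the 9 higher genes, against 22.1% of all genes tested. LOC108169093 had 4.49 and 7.24 CPM in IDH2 KO males, against 154, 94.1 and 142 CPM in WT males (log2 fold change -4.47 ± 0.37 SE, adjusted p = 0.000608). Its call was lost only when the 12 libraries were fitted together (adjusted p = 0.0591). LOC108169013 had 3 and 2 reads in IDH2 KO males, against 130, 924 and 252 reads in WT males (log2 fold change -7.34 ± 0.89 SE, adjusted p = 0.0170), a read ratio of WT over IDH2 KO of 191 with an exact 95% counting interval of 81.7 to 590. WT male 2 held most of the WT reads of LOC108169013, and the call was lost without WT male 3 or either IDH2 KO library. LOC108168162 (log2 fold change -4.44), Gm40812 (-4.19), Gm41844 (-3.75) and Gm29779 (-2.37) completed the group, and each of these 4 lost its call without WT male 3. Gm41844 and Gm29779 also lost it without either IDH2 KO library, LOC108168162 without IDH2 KO male 1 and Gm40812 without WT male 2. How the counting split reads between such loci and overlapping or similar genes is not given in the sources used here.

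Next in order of p, without passing the adjusted threshold in edgeR, came Hddc3, Cxcl1 and Micalcl on the higher side and Gm42035 on the lower side. Hddc3, a metal-dependent phosphohydrolase, starts 0.248 Mb from the start of Idh2 and had 9.48 and 6.96 CPM in IDH2 KO males, against 2.44, 1.90 and 1.79 CPM in WT males (log2 fold change 2.00 ± 0.37 SE, adjusted p = 0.0968). Of 30 other genes tested within 5 Mb of Idh2, 0 were called in edgeR or limma, DESeq2 called Hddc3, and 1 passed the study's criteria in each direction, Hddc3 being the higher one. Cxcl1, a chemokine that draws neutrophils, had 3.19 and 5.12 CPM in IDH2 KO males, against 0.330, 0.309 and 0.821 CPM in WT males (log2 fold change 3.12 ± 0.59 SE, adjusted p = 0.110). Micalcl had 7.74 and 8.97 CPM, against 1.65, 0.972 and 2.54 CPM in WT males (adjusted p = 0.113), and Gm42035 had 32.2 and 18.7 CPM, against 77.8, 83.7 and 130 CPM in WT males (adjusted p = 0.0679). All 4 were called in DESeq2.

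To ask where the males differed from the females, the genotype difference in males minus that in females was tested over all 12 libraries, with 3 IDH2 KO and 4 WT female libraries. None of 8644 genes passed the adjusted threshold (0%), with 274 at an unadjusted p under 0.05, and DESeq2 called 10. Without IDH2 KO female 3 the test called 2 genes, one of them Ugt1a5 (male minus female difference -2.26, adjusted p = 0.0192). Ugt1a5 had 100, 112 and 8.35 CPM in IDH2 KO females, against 86.4, 81.0, 108 and 71.1 CPM in WT females. The library left out was thus the only IDH2 KO female in which Ugt1a5 was low. Of the 20 genes called in males, 18 (90%) had a fold change of the same sign in females, against 4357 of 7680 genes (56.7%), and 7 (35%) were called in females, against 13 of the 7680 (0.169%). Gdpd3 was among these, with a log2 fold change of 8.63 ± 1.49 in females (SE, adjusted p = 0.0284), although 1 of the IDH2 KO females had none of it: its level was 19.1, 0 and 41.8 CPM in IDH2 KO females, against 0.155, 0.0350, 0 and 0 CPM in WT females. The other 6 included Idh2 (-10.03 ± 0.63) and Junb (2.00 ± 0.34, adjusted p = 0.0255). The remaining immediate early genes had smaller fitted values in females: 2.95 ± 0.65 for Egr1, 1.13 ± 0.40 for Jun, 1.40 ± 0.35 for Ier2, 1.17 ± 0.41 for Zfp36 and -0.51 ± 0.75 for Btg2. IDH2 KO female 3 was the lowest IDH2 KO female for 4 of these 5, all but Ier2. Egr1 had 89.7, 138 and 19.1 CPM in IDH2 KO females, against 21.0, 3.60, 6.01 and 11.9 CPM in WT females, and Zfp36 had 125, 137 and 37.7 CPM in IDH2 KO females, against 49.5, 24.7, 60.4 and 43.2 CPM in WT females, so for both genes that library lay within the WT range and the other two above it. The male minus female differences were 2.86 ± 1.00 for Egr1, 2.76 ± 0.62 for Jun, 2.00 ± 0.55 for Ier2, 2.05 ± 0.64 for Zfp36 and 3.86 ± 1.14 for Btg2, none past the threshold (adjusted p from 0.538 up). Without IDH2 KO female 3 they were 2.39 for Egr1, 2.49 for Jun, 2.32 for Ier2, 1.66 for Zfp36 and 3.31 for Btg2, again with none called. Of the 15 alternatives to this test, 2 called Jun, 1 each called Egr1, Zfp36 and Btg2, and 0 called Ier2. Pltp had a log2 fold change of 0.10 ± 0.33 in females, and its difference of -2.07 ± 0.52 between the sexes was not called either (adjusted p = 0.933). Sex and any difference between the cohorts of males and females cannot be told apart here.

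**Figure D5:**
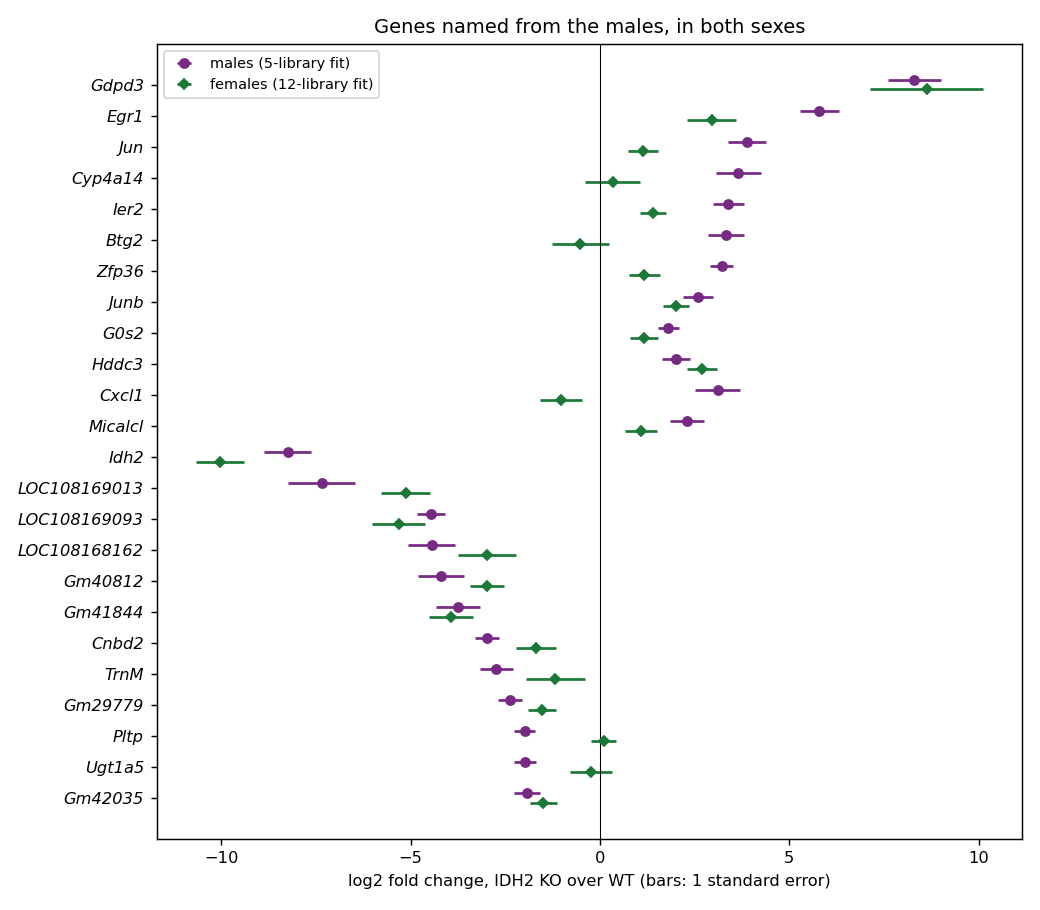
Log2 fold change of IDH2 KO over WT for the 20 genes called in males and the 4 next in order of p, in males (circles, fit of the 5 male libraries) and in females (diamonds, fit of all 12 libraries), with bars of 1 SE. Most genes lie on the same side in both sexes, Btg2, Cxcl1 and Pltp do not, and no difference between the sexes passed the adjusted threshold in edgeR.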

How the data were processed

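Liver RNA of 2 IDH2 KO and 3 WT males was compared, with 1 library per mouse, and sex and genotype were taken from the labels. The deposited table held whole-number counts of reads in 36228 rows named by gene, of which 15614 had a read in a male library. In 20 rows a gene name was repeated, and these rows were kept apart. Per the processing notes they used FastQC and GRCm38.p5, and no source used here names the aligner or counter. Their filtered table holds a part of these counts and served as an alternative.

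Counts of the 5 libraries were tested with edgeR 4.0.16 (R 4.3.3, quasi-likelihood, robust, TMM, filterByExpr at its default minimums of 10 reads and 15 in total), with Benjamini-Hochberg adjustment and a threshold of 0.05. CPM are counts relative to the scaled library size. The sexes were contrasted in a fit of 4 group means over 12 libraries. With 2 mice against 3, p values rest on the spread shared across genes. Counting intervals (scipy 1.17.1, exact 95%) and a floor of 3 reads cover counting error only.

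Named genes are Idh2, up to 12 called genes per direction with at least 1 CPM in a group, filled by the smallest p among genes past the study's criteria, up to 4 members of each list by p, and genes the study singles out. The members, the lists and this rule were chosen with earlier results of these data known. Alternatives were other scaling (RLE, none), no filter, the filtered table, removal of mitochondrial transcripts, DESeq2 1.42.0, limma 3.58.1 on log2 RPM, the 12-library fit, omission of each library in turn and a replicate block. The tests were tried on simulated data. Positions are those of GENCODE M21 (GRCm38), promoter sequences those of RefSeq (GRCm38.p6). A few genes are not reported here, though they stayed in all fits and lists.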

Additional observations from a re-analysis of the deposited data

How the results depend on the processing

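Of the 20 genes called, all 20 kept their call with RLE size factors, without mitochondrial genome transcripts, with no filter on low counts and in DESeq2. With no scaling factors 5 were lost (15 remained), with the authors' filtered genes 6, with limma 2 under either pseudocount, in the 12-library fit 12, and without WT male 3 14. Counts of calls at the adjusted threshold moved from the 9 higher and 11 lower genes of the report as follows. They were 19 and 6 with no scaling factors, 45 and 71 with no filter (15614 genes), 33 and 47 in DESeq2, 5 and 3 with 12 libraries, and 23 higher in limma on log2 RPM plus 1 and 24 higher on log2 RPM plus 0.5. With each library left out in turn they ranged over 3 to 18 higher and 3 to 15 lower. By the study's criteria the 159 higher and 178 lower genes became 253 and 89 with no scaling, 261 and 329 with no filter, 57 lower in limma plus 1 and 314 and 72 in limma plus 0.5, and with a library left out they ranged over 94 to 316 higher and 142 to 239 lower. The interaction, with 0 calls, gave 48 with no filter, 10 in DESeq2 and 0 to 2 with a library left out. The causes were not tested. The median of all genes was shifted to 0.20 with no scaling and to 0.18 and 0.22 in limma plus 1 and plus 0.5. In the same order the medians were -0.70, -0.42 and -0.62 for fatty acid synthesis and -0.43, -0.37 and -0.44 for cholesterol synthesis. They were -0.29, -0.21 and -0.21 for glucose and glycogen genes and -0.31, -0.20 and -0.22 for xenobiotic and steroid metabolism. For genes higher in male liver they were -0.27, -0.37 and -0.38.

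With the replicate number as a replicate block, 29 genes were higher and 36 lower, all 20 calls among them, and 204 and 199 passed the study's criteria. The labels do not say whether the numbers mean more than a name for each mouse. Same-numbered IDH2 KO and WT libraries deviated together by a correlation of 0.07 for number 1 and 0.04 for number 2 across genes. With 2 IDH2 KO libraries their deviations mirror each other, so these values cannot show whether a number marks a shared batch.

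Signs turned for these values. Ppara was 0.12 with no scaling, 0.16 and 0.17 in limma plus 1 and plus 0.5, and -0.41 to 0.27 with a library left out. Hsd3b5 was -1.08 to 0.082 with a library left out. The male minus female difference of Gdpd3 ranged over -1.66 to 2.45 with a library left out, that of Junb over -0.41 to 1.17 and that of Gm41844 over -0.32 to 0.99. Genes with a few reads in a genotype, such as Me1, have fitted folds that depend on the prior count. With 2 IDH2 KO males, 1 mouse sets much of each value, and a list with no member called is not shown to be unchanged.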

Other observations

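Several cell type lists were counted without being described above. Of 10 Kupffer and myeloid markers tested, 9 had a positive log2 fold change, with a median of 0.43 and 0 called in edgeR, DESeq2 or limma (0 at an unadjusted p under 0.05), and their summed level was 330 and 303 CPM in IDH2 KO males, against 294, 277 and 210 CPM in WT males. Stellate and fibroblast markers summed to 41.2 and 41.7 CPM in IDH2 KO males, against 26.6, 37.5 and 16.9 CPM in WT males, and endothelial markers to 59.3 and 86.8 CPM, against 77.8, 88.4 and 76.9 CPM in WT males. Of 8 T, NK and B cell markers tested, 6 had a positive and 2 a negative log2 fold change, with a median of 0.75, 0 called in edgeR or limma and 1 lower at an unadjusted p under 0.05, and the sign of the median turned without IDH2 KO male 1 (-0.25). The gene with the smallest p of this list lay on the negative side. Ighm, the heavy chain of IgM, had 12.9 and 4.94 CPM in IDH2 KO males, against 131, 34.5 and 34.8 CPM in WT males (log2 fold change -2.90 ± 0.82 SE, adjusted p = 0.611 in edgeR), and DESeq2 called it lower. WT male 1 was the highest library for Ighm and also held the intestinal transcript Akp3.

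Gdf15, a stress-induced cytokine, had 1.20 and 5.75 CPM in IDH2 KO males, against 0.264, 0.221 and 0 CPM in WT males (log2 fold change 4.29 ± 0.94 SE, adjusted p = 0.186 in edgeR). Ppp1r15a, which dephosphorylates the initiation factor eIF2 alpha together with protein phosphatase 1, had 17.2 and 25.4 CPM in IDH2 KO males, against 9.65, 10.2 and 13.1 CPM in WT males (adjusted p = 0.592). Over the integrated stress response list 9 of 22 genes were tested, 0 were called in edgeR or limma with 2 at an unadjusted p under 0.05, DESeq2 called Gdf15, and the median was 0.06.

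Hsd3b5, a steroid dehydrogenase typical of male mouse liver and picked out after its values were seen, had the smallest p of the male minus female test. It had 165 and 368 CPM in IDH2 KO males, against 485, 251 and 321 CPM in WT males. In females it had 0.630, 1.04 and 1.06 CPM in IDH2 KO livers, against 10.8, 14.5, 14.5 and 14.0 CPM in WT livers. The difference of 3.51 ± 0.52 on the log2 scale missed the threshold in edgeR (SE, adjusted p = 0.0779), with adjusted p between 1.04e-07 and 0.501 over its alternatives, and it was called without IDH2 KO female 3 (0.0192). The IDH2 KO and WT ranges overlapped in males and not in females.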
